A study of Mus musculus with 6 samples.

Results

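A group of 10 matricellular genes was followed in C2C12 cells, a mouse myoblast line, with Msx1 overexpression (n = 3 libraries) and in control C2C12 cells (n = 3 libraries). Msx1 is a homeobox transcription factor known to hold back muscle differentiation. They form a named list, Thbs1, Thbs2, Thbs3, Tnc, Postn, Sparc, Smoc1, Smoc2, Ccn1 (also Cyr61) and Ccn2 (also Ctgf). They were picked by symbol out of 24805 genes, and 18 of the 38468 RefSeq transcripts measured belonged to them. Both groups carry the cell type myoblast in their labels, and the headings of the control columns name a vector. How Msx1 was introduced, the promoter behind it, whether the cells were 1 clone, and their stage and density at harvest are not stated in the labels. Stage or density may differ between the groups, and such a difference and Msx1 itself cannot be told apart here. Separate cultures are not named for the replicates, so the p-values cover the spread among these libraries alone, which may be technical.

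Matricellular proteins are secreted into the extracellular matrix but act mainly on cells and growth factors rather than as structural fibres. Thrombospondins bind CD47, CD36 and integrins, and thrombospondin 1 can activate latent TGF-beta. Tenascin C and periostin are deposited in healing and remodelling tissue, SPARC and the SMOC proteins bind calcium and matrix, and CCN proteins bind integrins and heparan sulfate. CCN1 and CCN2 are standard readouts of the YAP and TEAD transcription factors. In muscle, several of these proteins are made during injury repair and by fibroblasts.

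Thbs2 and Smoc2 rose strongly in Msx1 cells, to 332 FPKM for Thbs2 and 33.5 FPKM for Smoc2, against 54.5 and 6.65 FPKM in control cells (means, n = 3 each). FPKM counts fragments per kilobase of transcript and for a fixed number of mapped fragments in the library, here summed over the transcripts of a gene. Ccn2 rose by a smaller amount, while Thbs3, Tnc, Ccn1 and Smoc1 fell. Thbs1, Sparc and Postn did not pass the test. All 10 members had a mean of at least 0.5 FPKM and were tested.

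Of the 10 members, 3 were called higher, against 22% of the 12369 genes tested, and 4 were called lower, against 32.5% of the genes tested. A call is an adjusted p under 0.05 in limma, a linear model fitted to all genes on the log2(FPKM + 1) scale. That makes 7 of 10 called in either direction, beside 54.4% of all genes tested. The values of the groups did not overlap for 7 of 10 members, beside 62.3% of all genes. Thbs2 and Smoc2, 2 of 10 members, were called with a log2 change of 1 or more in size, beside 7.53% of all genes. The share of called members was thus not far from the background of this comparison, in which most genes changed. The median change of the members was 0.00 and that of all genes tested was -0.07. Of all calls 40.4% were higher, 50.8% after median-of-ratios scaling, 45.8% after quantile normalization and 55.4% with equal library totals without Msx1. Quantile normalization and equal totals called 4 members higher, and the count called lower was 3 with equal totals and also after median-of-ratios scaling.

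**Figure D1:**
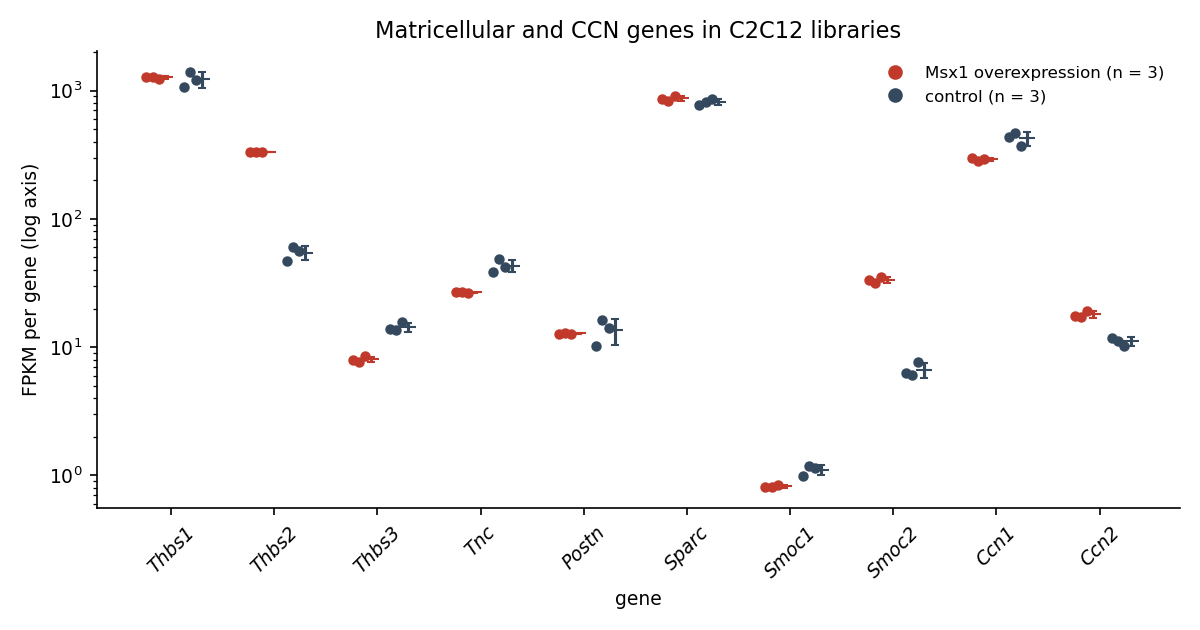
FPKM of the 10 members on a log axis in the 3 Msx1 libraries (red, left) and the 3 control libraries (blue, right), with the mean ± SD as a bar beside the points. The Thbs2 and Smoc2 points of the Msx1 libraries, at 331 to 333 and 31.6 to 35.4 FPKM, lie above all control points, while Thbs1, Sparc and Postn overlap.

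The libraries matched their labels for the introduced gene. Msx1 lay between 912 and 1004 FPKM in Msx1 libraries, against 7.13 to 7.99 FPKM in control libraries (log2 change 6.80, SE 0.06, adjusted p = 1.02e-09; exact two-sided permutation p = 0.1, the smallest that 3 against 3 allow). Total FPKM lay between 390439 and 401803 in Msx1 and between 409664 and 441835 in control libraries. The 6 genes listed as myoblast markers, of which Vim is not specific to myoblasts, were all measured in both groups. Of these genes 1 rose, 3 fell and 2 were not called. Ncam1 (log2 change 0.94) rose, Myf5 (-1.92), Vim (-0.58) and Des (-0.27) fell, and Myod1 (-0.11) and Cdh15 (0.13) were not called. Their sum was 1791 to 1849 FPKM in Msx1 and 2506 to 2691 FPKM in control libraries, most of it Vim at 1612 ± 29.7 FPKM in Msx1 and 2404 ± 97.8 FPKM in control cells (SD, n = 3 each). Of 6 fibroblast markers 3 rose, 1 fell and 2 were below the filter, and their sum was 301 to 309 FPKM in Msx1 against 111 to 120 FPKM in control libraries. Of 7 osteoblast and chondrocyte markers 2 rose, 1 was not called and 4 were below the filter, with sums of 89.3 to 92.2 FPKM in Msx1 against 26.2 to 28.0 FPKM in control libraries, and Ibsp at 0 throughout. The 5 endothelial markers summed to 0.523 to 0.889 FPKM in Msx1 and 0.261 to 0.273 FPKM in control libraries. Ptprc, which defines leukocytes, and the macrophage marker Adgre1 were listed at 0 in every library. Cd14 alone of the 5 leukocyte markers was tested and fell, and the list summed to 11.6 to 13.0 FPKM in Msx1 against 17.8 to 20.3 FPKM in control libraries. The fibroblast markers did not all move one way. Pdgfrb, Dpt and Col1a1 rose and Pdgfra fell, the last to 8.84 ± 0.583 FPKM in Msx1, against 18.7 ± 1.84 FPKM in control cells. Most of the fibroblast sum was Pdgfrb, at 225 ± 5.16 FPKM in Msx1 and 74.6 ± 1.94 FPKM in control cells. Of the bone markers tested, Alpl and Bglap rose and Sox9 was not called. The difference in the bone sum was mostly Alpl, at 62.3 ± 2.14 FPKM in Msx1 and 0.609 ± 0.246 FPKM in control cells (SD, n = 3 each). The part of these markers in the changes of the matricellular genes was not tested. In such bulk samples, fewer cells of a type and less RNA per cell cannot be told apart.

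Promoter sequence was available from RefSeq (GRCm38.p6) for 6 of the 10 members. The 250 bases before the start are shown for the member that rose most and for 3 that fell. Capitals mark matches on either strand to the TEAD core GGAATG, the homeodomain core TAATTG, the AP-1 site TGANTCA and the TATA box TATAAA. Thbs2 is from chr17:14694263-14694512 on the minus strand, Thbs3 from chr3:89214930-89215179 on the plus strand, Tnc from chr4:64047016-64047265 on the minus strand and Ccn1 from chr3:145649986-145650235 on the minus strand.
Thbs2: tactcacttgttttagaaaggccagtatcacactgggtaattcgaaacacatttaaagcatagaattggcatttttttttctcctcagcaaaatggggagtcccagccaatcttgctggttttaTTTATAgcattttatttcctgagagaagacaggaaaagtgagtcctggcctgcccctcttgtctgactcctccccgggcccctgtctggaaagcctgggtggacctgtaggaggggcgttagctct
Thbs3: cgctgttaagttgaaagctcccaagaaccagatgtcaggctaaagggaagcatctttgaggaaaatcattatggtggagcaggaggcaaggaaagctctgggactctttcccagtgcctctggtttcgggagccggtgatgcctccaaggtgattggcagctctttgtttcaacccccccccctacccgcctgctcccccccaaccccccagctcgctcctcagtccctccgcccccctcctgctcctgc
Tnc: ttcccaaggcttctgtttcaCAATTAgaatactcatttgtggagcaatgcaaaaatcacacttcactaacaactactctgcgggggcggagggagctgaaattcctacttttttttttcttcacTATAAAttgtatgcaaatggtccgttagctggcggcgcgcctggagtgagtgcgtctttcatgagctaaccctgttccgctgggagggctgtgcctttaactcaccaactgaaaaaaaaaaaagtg
Ccn1: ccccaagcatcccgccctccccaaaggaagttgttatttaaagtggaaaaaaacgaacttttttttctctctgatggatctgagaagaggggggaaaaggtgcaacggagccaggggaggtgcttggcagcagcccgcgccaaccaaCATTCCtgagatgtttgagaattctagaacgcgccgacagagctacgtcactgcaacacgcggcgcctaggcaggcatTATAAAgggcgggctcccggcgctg
The Ccn1 window held a TEAD core starting 103 bases before the start and a TATA box 25 bases before it. The Tnc window held a homeodomain core and, 126 bases before the start, a TATA box sequence. Another annotated Tnc start, whose window overlaps this one, has no homeodomain core and the same TATA box sequence 205 bases before it. The Thbs2 window held only a TATA box sequence, on the opposite strand, and the Thbs3 window none of the 4 motifs. A homeodomain core also lay 163 bases before 1 start of Postn, a member that was not called and is not shown. Another annotated Postn start had no homeodomain core and a TATA box 26 bases before it. Among 32841 promoter windows of the same length, 12.6% held the TEAD core, 7.17% the homeodomain core, 6.75% the AP-1 site and 12.4% the TATA box. The CArG box of SRF was in none of the member windows and in 1.47% of all windows. These matches describe the letters of the windows and say nothing about binding.

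Among the thrombospondins, Thbs1 and Thbs2 encode the trimeric secreted forms known to restrain blood vessel growth, and Thbs3 encodes a pentameric form. Thbs2 (chr17:14665500-14694262, minus strand) was at 331, 333 and 332 FPKM in Msx1 replicates 1, 2 and 3, against 46.8, 60.1 and 56.5 FPKM in control replicates 1, 2 and 3. Every Msx1 library was thus several times above every control library, and the 3 Msx1 libraries were nearly equal. The means were 332 ± 0.861 FPKM in Msx1 and 54.5 ± 6.85 FPKM in control cells (SD, n = 3 each), 6.09-fold higher in Msx1 cells (log2 change 2.59, SE 0.09, adjusted p = 2.65e-07). Only 0.776% of the genes tested had a larger change in either direction. By mean level Thbs2 ranked 165 of 12369 genes in Msx1 cells and 1414 in control cells.

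Thbs3 (chr3:89215180-89226841, plus strand) moved the other way. It was at 7.93, 7.68 and 8.45 FPKM in Msx1 libraries, against 13.9, 13.5 and 15.6 FPKM in control libraries, with no overlap. The ratio of mean levels, Msx1 over control, was 0.559 (log2 change -0.76, SE 0.07, adjusted p = 5.61e-05). Its non-coding transcript NR_149740 held 1.64% ± 0.925 of its FPKM in Msx1 and 1.91% ± 0.572 in control cells (SD, n = 3 each). Most of the change in FPKM was thus in the coding transcript. The non-coding transcript was lower too, at 0.187, 0.0459 and 0.167 FPKM in Msx1 libraries, against 0.288, 0.321 and 0.198 FPKM in control libraries.

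Thbs1 (chr2:118111876-118127133, plus strand) was the most abundant member in both groups, ranking 15 of 12369 genes in Msx1 cells and 21 in control cells. It was at 1284, 1283 and 1231 FPKM in Msx1 libraries, against 1063, 1406 and 1210 FPKM in control libraries. The Msx1 values all lay inside the range of the control values. No difference was called (log2 change 0.05, 95% interval -0.20 to 0.30, adjusted p = 0.693), and the sign turned without control replicate 1 (log2 change -0.04, adjusted p = 0.675). Its transcript NM_011580 held 60.0% ± 3.53 of the FPKM in Msx1 and 57.8% ± 0.316 in control cells (SD, n = 3 each; exact permutation p = 0.4).

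The balance within the family was compared through ratios in each library. The ratio of Thbs2 to Thbs1 FPKM was 0.258, 0.259 and 0.27 in Msx1 libraries, against 0.0441, 0.0428 and 0.0467 in control libraries. The log2 ratio was 2.56 higher in Msx1 cells (exact two-sided permutation p = 0.1, the smallest possible, over 4 pairs of genes compared, with all 4 at that p). Each of these ratios restates the separate changes of its genes and is not added evidence. Its direction depends on which gene was put on top. Comp, the cartilage thrombospondin, was low and rose, at 1.00 ± 0.108 FPKM in Msx1 and 0.472 ± 0.0331 FPKM in control cells (n = 3 each; log2 change 0.44, adjusted p = 0.00173). Thbs4 was below the filter. The 5 family genes summed to 1573 to 1625 FPKM in Msx1 and 1125 to 1480 FPKM in control libraries.

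Tenascin C and periostin were measured at moderate levels. Tnc (chr4:63959785-64047015, minus strand), which modulates adhesion to fibronectin, was at 27.1, 26.7 and 26.5 FPKM in Msx1 libraries, against 38.5, 48.3 and 42.4 FPKM in control libraries. All Msx1 values were below all control values. The ratio of means, Msx1 over control, was 0.621 (log2 change -0.66, SE 0.08, adjusted p = 2.35e-04). Tnc was measured through 1 transcript, NM_011607, so splice forms are not separated.

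Postn (chr3:54359267-54391041, plus strand), which helps collagen crosslinking through BMP1 and lysyl oxidase, was at 12.7, 12.9 and 12.7 FPKM in Msx1 libraries, against 10.2, 16.4 and 14.1 FPKM in control libraries. The control libraries were spread on both sides of the Msx1 libraries. No difference was called (log2 change -0.05, 95% interval -0.39 to 0.28, adjusted p = 0.776). Without control replicate 1, the lowest of all, Postn was called lower (log2 change -0.23, adjusted p = 0.0235), and without control replicate 2 the sign turned (0.09, adjusted p = 0.572). The sign also turned after median-of-ratios scaling (0.02), with equal totals (0.05) and for its most abundant transcript (0.07). Among its 5 transcripts NM_001198766 was the most abundant, at 53.6% ± 6.97 of the FPKM in Msx1 and 48.4% ± 3.32 in control cells (SD, n = 3 each; exact permutation p = 0.3). NM_015784 held 16.7% ± 7.84 in Msx1 and 24.6% ± 1.82 in control cells (SD, n = 3 each; exact permutation p = 0.2). StringTie divides reads among such overlapping transcripts by estimation, and none of the 13 isoform shares compared had an exact p below 0.2.

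The ratio of Postn to Tnc was 0.471, 0.483 and 0.479 in Msx1 libraries, against 0.264, 0.339 and 0.332 in control libraries (log2 difference 0.63, exact permutation p = 0.1). Among the other tenascins, Tnxb, which binds collagen fibrils, rose, at 1.59 ± 0.0137 FPKM in Msx1 and 0.229 ± 0.00866 FPKM in control cells (n = 3 each; log2 change 1.08, adjusted p = 6.11e-06). Tnr and Tnn were below the filter. Tgfbi, a relative of periostin, rose, at 1.81 ± 0.458 FPKM in Msx1 and 0.281 ± 0.109 FPKM in control cells (n = 3 each; log2 change 1.13, adjusted p = 1.63e-04). Both Tnxb and Tgfbi stayed at or below 2.33 FPKM in every library.

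**Figure D2:**
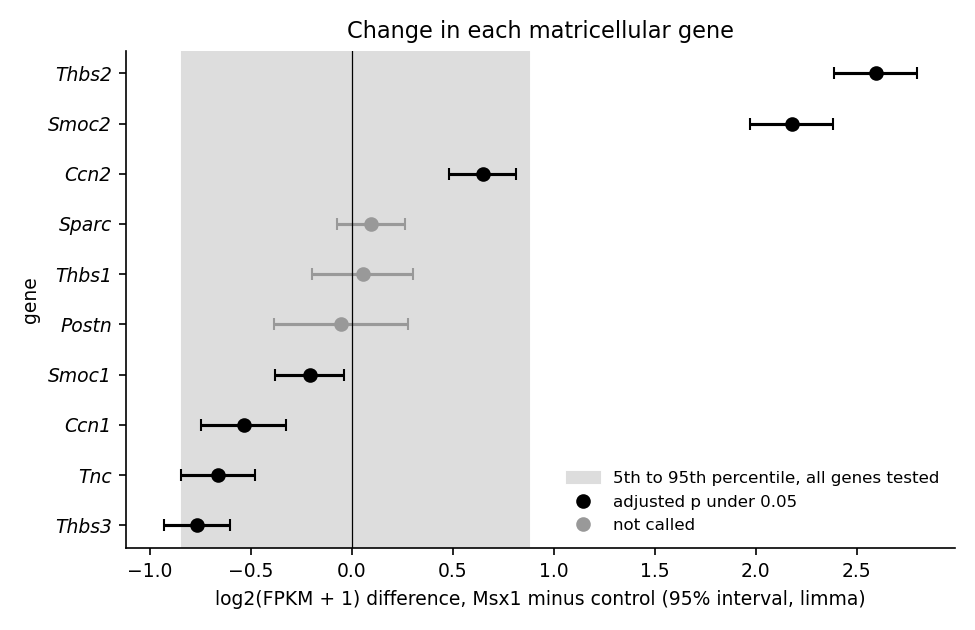
Difference in log2(FPKM + 1), Msx1 minus control, for the 10 members with the 95% interval of limma, black where the adjusted p was under 0.05, over a grey band from the 5th to the 95th percentile of all genes tested (-0.84 to 0.88). Thbs2 at 2.59 and Smoc2 at 2.18 lie beyond the band, and the other 8 members lie inside it.

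SPARC and its relatives share a related extracellular domain, which binds calcium in SPARC. Sparc itself (chr11:55394159-55420080, minus strand), which binds collagen and limits cell spreading, was at 863, 835 and 908 FPKM in Msx1 libraries, against 770.2, 813 and 856 FPKM in control libraries. The groups overlapped, and no difference was called (log2 change 0.10, 95% interval -0.07 to 0.27, adjusted p = 0.301). It was called higher after quantile normalization (0.30, adjusted p = 0.00441) and with equal totals (0.21, adjusted p = 0.0328). Its main transcript NM_009242 held 78.7% ± 0.69 of the FPKM in Msx1 and 77.7% ± 3.30 in control cells (SD, n = 3 each; exact permutation p = 0.9).

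Smoc2 (chr17:14279490-14404790, plus strand), a secreted modular calcium-binding protein that takes part in cell migration and growth factor signalling, was at 33.4, 31.6 and 35.4 FPKM in Msx1 libraries, against 6.26, 6.01 and 7.68 FPKM in control libraries. The lowest Msx1 library was more than 4 times the highest control library. Means were 33.5 ± 1.89 FPKM in Msx1 and 6.65 ± 0.899 FPKM in control cells (SD, n = 3 each), 5.04-fold higher in Msx1 cells (log2 change 2.18, SE 0.09, adjusted p = 7.04e-07). Its paralog Smoc1 (chr12:81026808-81186414, plus strand), an antagonist of BMP signalling in Xenopus, was near 1 FPKM, at 0.819, 0.806 and 0.848 FPKM in Msx1 libraries, against 0.987, 1.19 and 1.14 FPKM in control libraries. Those groups did not overlap, and Smoc1 fell by 0.21 on the log2 scale (SE 0.07, adjusted p = 0.0433). That call was lost in 8 of 16 refits, with adjusted p between 0.0742 and 0.147 in those 8 and from 0.0031 over all 16, and among these were all refits without 1 library except the one without control replicate 1. Without Msx1 replicate 1, 2 or 3 the adjusted p was 0.10, 0.112 and 0.080, and without control replicate 2 or 3 it was 0.114 and 0.118. With equal totals it was 0.147, and after median-of-ratios scaling 0.082.

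The estimated split of Smoc1 between its 2 transcripts was uneven. NM_022316 was at 0.145, 0.0744 and 0.838 FPKM in Msx1 libraries, against 0.987, 1.18 and 0.877 FPKM in control libraries. NM_001146217 made up the rest, with 82.3%, 90.8% and 1.26% of the FPKM in Msx1 replicates 1, 2 and 3. Msx1 replicate 3 thus looked like the controls (exact permutation p = 0.2 for the share). The ratio of Smoc2 to Smoc1 was 40.8, 39.2 and 41.7 in Msx1 libraries, against 6.34, 5.04 and 6.72 in control libraries (log2 difference 2.76, exact permutation p = 0.1).

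Other SPARC relatives changed by less than Smoc2. Fstl1, a secreted glycoprotein, rose, at 374 ± 6.25 FPKM in Msx1 and 304 ± 16.0 FPKM in control cells (n = 3 each; log2 change 0.30, adjusted p = 0.00379). Spock2, a proteoglycan, fell, at 16.3 ± 0.267 FPKM in Msx1 and 23.1 ± 0.848 FPKM in control cells (n = 3 each; log2 change -0.48, adjusted p = 1.22e-04). Sparcl1 averaged 0.954 ± 0.114 FPKM in Msx1 and 1.25 ± 0.141 FPKM in control cells (n = 3 each) and was not called (log2 change -0.21, adjusted p = 0.0674). It was called lower in 4 of 16 refits, with adjusted p of 0.0038 with sample weights, 0.0427 with no intensity trend, 0.0437 after quantile normalization and 0.0482 without control replicate 1. Spock1 and Spock3 were below the filter, and the 8 family genes summed to 1256 to 1342 FPKM in Msx1 and 1086 to 1206 FPKM in control libraries.

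**Figure D3:**
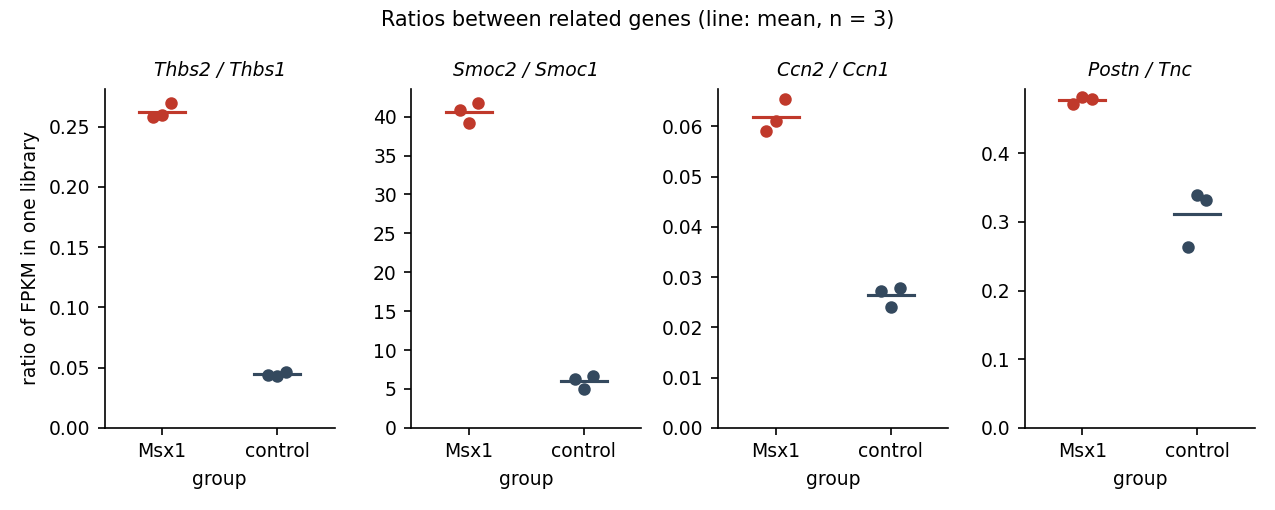
Ratio of FPKM between pairs of members within each library, in 4 panels with axes from 0, for Msx1 (red, left) and control libraries (blue, right), with a line at the mean of 3. In every panel all Msx1 points lie above all control points, with 0.258 to 0.27 against 0.0428 to 0.0467 for Thbs2 over Thbs1. The shared direction follows from the changes of the members and from which gene was put on top.

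The paired CCN genes went in opposite directions. Ccn1 (chr3:145646971-145649985, minus strand), an immediate early gene whose product promotes adhesion and, at high dose, senescence of fibroblasts, was at 297, 281 and 294 FPKM in Msx1 libraries, against 438, 466 and 367 FPKM in control libraries. Every Msx1 value was below every control value. The ratio of means, Msx1 over control, was 0.686 (log2 change -0.54, SE 0.09, adjusted p = 0.00163). Of the 6 members with a promoter window, Ccn1 alone held the TEAD core, as its printed sequence shows.

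Ccn2 (chr10:24595442-24598683, plus strand), a profibrotic target of TGF-beta, was at 17.5, 17.2 and 19.2 FPKM in Msx1 libraries, against 11.9, 11.2 and 10.2 FPKM in control libraries. The groups did not overlap, and the mean was 1.62-fold higher in Msx1 cells (log2 change 0.65, SE 0.07, adjusted p = 1.53e-04). Ccn1 remained far more abundant than Ccn2 in every library, since FPKM is scaled by length and can be compared between genes. The ratio of Ccn2 to Ccn1 was 0.059, 0.061 and 0.0654 in Msx1 libraries, against 0.0272, 0.024 and 0.0279 in control libraries. That log2 ratio was 1.23 higher in Msx1 cells (exact permutation p = 0.1).

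Of the other CCN genes, Ccn5, which lacks the C-terminal domain of the family and is also known as Wisp2, rose the most. It was at 96.0, 95.7 and 93.5 FPKM in Msx1 libraries, against 14.5, 11.7 and 11.9 FPKM in control libraries (7.47-fold; log2 change 2.81, SE 0.08, adjusted p = 1.099e-07). Ccn4, first described as a Wnt1-induced gene, rose, at 80.8 ± 3.68 FPKM in Msx1 and 29.5 ± 3.04 FPKM in control cells (SD, n = 3 each; log2 change 1.43, adjusted p = 3.04e-06). Ccn3 was at 41.5, 39.8 and 43.4 FPKM in Msx1 libraries and at 34.2, 44.8 and 39.6 FPKM in control libraries and was not called (log2 change 0.08, adjusted p = 0.515; -0.02 without control replicate 1). Ccn6 was below the filter. Of the 6 CCN genes 3 rose, 1 fell, 1 was not called and 1 was below the filter, so 4 of 5 tested were called, beside 54.4% of all genes. The summed level of the 6 overlapped between groups, at 519 to 531 FPKM in Msx1 and 458 to 566 FPKM in control libraries.

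Across the 16 other matricellular genes, 6 rose, 2 fell, 2 were not called and 6 were below the filter, so 80% of the 10 tested were called, beside 54.4% of all genes. With the filter at a mean of 5 FPKM, 3 were called higher. Their median change was 0.37, beside -0.07 for all genes. These genes were listed with earlier results of the data known, so the share called describes the list alone. Spp1, encoding the integrin-binding phosphoprotein osteopontin, had the largest decrease on this list, at 402 ± 37.5 FPKM in Msx1 and 978 ± 139 FPKM in control cells (SD, n = 3 each; log2 change -1.27, adjusted p = 5.20e-05). It lay in the range of the abundant members, at 370, 393 and 443 FPKM in Msx1 libraries and 841, 972 and 1120 FPKM in control libraries.

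**Figure D4:**
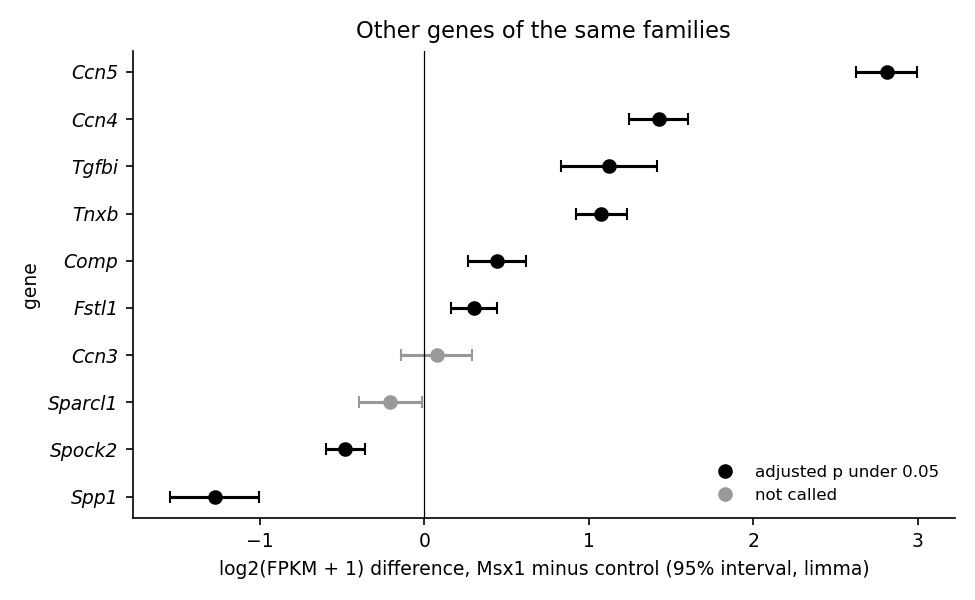
Difference in log2(FPKM + 1), Msx1 minus control, with the 95% interval of limma for the 10 tested genes of the other matricellular list, black where the adjusted p was under 0.05. Ccn5 at 2.81 and Ccn4 at 1.43 stand at the top, Spp1 at -1.27 at the bottom, and Ccn3 and Sparcl1 were not called.

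Replicate spread differed between the groups. The coefficient of variation (SD over mean) was larger in control than in Msx1 libraries for 10 of 10 members and for 68.5% of all genes, with a median over the members of 2.75% in Msx1 and 11.7% in control cells. Over all genes the medians were 5.18% in Msx1 and 8.11% in control cells. Control replicate 1 was the lowest control library for 6 of 10 members and for 42.0% of all genes. The members together held 0.714% to 0.734% of the FPKM of the Msx1 libraries and 0.543% to 0.694% of that of the control libraries. Thbs1 and Sparc made up 74.6% to 74.9% of the members' sum in Msx1 and 76.4% to 80.1% in control libraries.

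The most changed members, Smoc2 and Thbs2, are neighbours on chromosome 17, with 260709 bases between them (GRCm38). Genes from 500000 bases before Smoc2 to 500000 bases after Thbs2 were therefore listed, a window chosen after the values were seen. Of 7 other genes tested there 3 rose and 0 fell, beside 22% of all genes called higher and 32.5% called lower. Those that rose were Afdn, Dact2 and Phf10. Afdn, encoding the junction protein afadin, was at 28.5 ± 0.85 FPKM in Msx1 and 11.0 ± 0.893 FPKM in control cells (SD, n = 3 each; log2 change 1.30, adjusted p = 2.12e-06). Its most abundant transcript alone had a change of -0.17 and was not called (adjusted p = 0.915). Dact2, encoding a modulator of Wnt and TGF-beta signalling, was at 9.12 ± 0.494 FPKM in Msx1 and 5.48 ± 0.19 FPKM in control cells (n = 3 each; log2 change 0.64, adjusted p = 7.77e-05). Phf10, a subunit of a chromatin remodelling complex, was at 50.2 ± 1.77 FPKM in Msx1 and 37.8 ± 3.48 FPKM in control cells (n = 3 each; log2 change 0.40, adjusted p = 0.00189). The change of Thbs2 and Smoc2 was the largest among these 9 genes, and whether it differed from that of their neighbours was not tested.

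**Figure D5:**
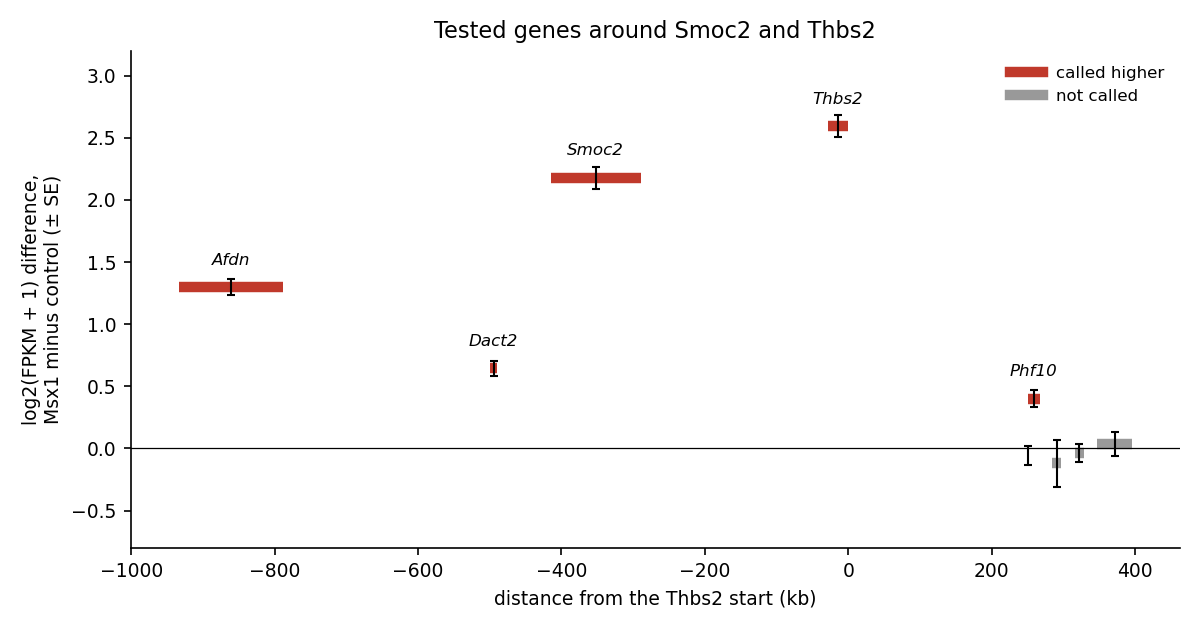
Difference in log2(FPKM + 1) (± SE of limma), Msx1 minus control, of the 9 tested genes around Smoc2 and Thbs2, drawn as bars along the distance from the Thbs2 start in kb. The 5 genes called higher (red, named) include Thbs2 at 2.59 and Smoc2 at 2.18, and the 4 not called (grey) lie near 0 at the right.

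Receptors for these proteins were listed next. Of 23 receptor genes 6 rose, 4 fell, 8 were not called and 5 were below the filter, so 55.6% of the 18 tested were called, beside 54.4% of all genes, with a median change of 0.13. The genes below the filter were Cd36, Itga2, Itga8, Itga9 and Stab1, named after their values were seen. Itgb5, the integrin subunit that pairs with alpha-v and binds periostin, rose, at 206 ± 2.63 FPKM in Msx1 and 63.4 ± 0.113 FPKM in control cells (SD, n = 3 each; log2 change 1.68, adjusted p = 8.57e-08). Itga6, an integrin subunit bound by CCN1, rose, at 5.98 ± 0.198 FPKM in Msx1 and 2.07 ± 0.173 FPKM in control cells (n = 3 each; log2 change 1.19, adjusted p = 4.31e-06). Itga3, a thrombospondin-binding subunit, rose, at 129 ± 2.55 FPKM in Msx1 and 70.7 ± 2.70 FPKM in control cells (n = 3 each; log2 change 0.86, adjusted p = 4.39e-06). Cd47, the thrombospondin 1 receptor, fell, at 33.8 ± 1.31 FPKM in Msx1 and 58.4 ± 1.33 FPKM in control cells (n = 3 each; log2 change -0.77, adjusted p = 7.56e-06).

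Among 15 matrix partners and processing proteases 7 rose, 7 fell and 1 was not called, so 93.3% were called, beside 54.4% of all genes, and the median change was -0.04. The members' partners thus changed in both directions. This list was chosen with earlier results of these data known, so its share of calls describes the list alone. Dcn, the small proteoglycan decorin, rose, at 89.7 ± 5.51 FPKM in Msx1 and 5.07 ± 1.35 FPKM in control cells (SD, n = 3 each; log2 change 3.92, adjusted p = 3.26e-07). Vcan, the large proteoglycan versican, fell, at 3.21 ± 0.252 FPKM in Msx1 and 32.5 ± 5.27 FPKM in control cells (n = 3 each; log2 change -2.98, adjusted p = 5.25e-07). The crosslinking enzyme gene Lox fell by 3.25 on the log2 scale (adjusted p = 7.87e-08) and Adamts1, a protease that cleaves thrombospondins, fell by 0.99 (adjusted p = 7.11e-06).

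Targets of YAP and TEAD and genes of the Hippo pathway were also listed. Their part in the changes of Ccn1 and Ccn2 was not tested. Of 20 YAP-TEAD target genes, with Ccn1 and Ccn2 left out, 8 rose, 2 fell, 9 were not called and 1 was below the filter, 52.6% of those tested beside 54.4% of all genes, with a median change of 0.12. Those with the smallest adjusted p were Igfbp3 (log2 change 2.72), the stress gene Gadd45a (2.63), the ectonucleotidase gene Nt5e (3.01) and Crim1 (1.27), all higher. Their adjusted p ran from 1.48e-08 to 1.33e-06. The 2 that fell were Ankrd1 (-0.95, adjusted p = 3.53e-06) and Ccdc80 (-0.44, adjusted p = 0.00275). Of 16 genes of the Hippo pathway and its TEAD cofactors 7 rose, 4 fell and 5 were not called, so 68.8% were called, beside 54.4% of all genes, with a median change of -0.01. Vgll4 (0.62) and the kinase gene Lats2 (0.55), which restrain TEAD activity, and Nf2 (0.45) rose, and Tead2 (-0.58) fell. Only 4 rose when the most abundant transcript was used, and 2 fell without Msx1 replicate 1, without Msx1 replicate 3 and without control replicate 2. With median-of-ratios scaling 2 fell, and with equal totals 1.

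Of 12 SRF and MRTF genes 4 rose, 5 fell and 3 were not called, so 75% were called, beside 54.4% of all genes, with a median change of -0.09. The smooth muscle gene Cnn1 (log2 change -1.52) fell, while Actn1 (0.71), Myl9 (0.61) and Fhl2 (0.46) rose, with adjusted p from 1.85e-05 to 5.91e-04. Without Msx1 replicate 2 the count called lower was 3, and it was 2 under each of these scalings, median-of-ratios and equal totals. Of 12 TGF-beta ligands, receptors and early targets 6 rose, 2 fell, 3 were not called and 1 was below the filter, so 72.7% of the 11 tested were called, beside 54.4% of all genes, with a median change of 0.47. The ligand genes Tgfb1 (0.93) and Tgfb3 (0.68) and the repressor gene Ski (0.61) rose, with adjusted p from 7.05e-06 to 2.63e-05. The count called lower was 1 without Msx1 replicate 1 or 3, without control replicate 2 or 3, with equal totals and for the most abundant transcript.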

How the data were processed

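The authors deposited FPKM per RefSeq transcript with 1 column per sample. Trimmomatic, HISAT2 and StringTie were used with GRCm38 (mm10), per the submitters' processing notes, and versions, settings and use of strand are not stated in the labels. Extraction used Trizol and library construction a NEBNext Ultra kit, per the labels' protocols. Control columns, headed by a vector and a number, were matched by number to the control titles. Symbols came from RefSeq for 38193 of 38468 transcripts and from GENCODE for 156, and 119 kept their identifiers. FPKM were summed per symbol to 24805 genes. Reads of overlapping or antisense genes cannot be separated, and each FPKM depends on the total of its library.

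Groups were compared on log2(FPKM + 1) in limma 3.58.1 under R 4.3.3, with an intensity trend and Benjamini-Hochberg adjustment. The 12369 genes averaging 0.5 FPKM or more over the 6 libraries were tested, and 12436 were left out. This scale understates changes of low genes. SE is the moderated SE. Folds are ratios of mean FPKM. The fit was tested on simulated data in which only a small part of the genes changed. That test does not cover a comparison in which most genes are called. The 17 alternatives covered pseudocount, filter, scaling, weights, trend, transcript choice, block and each library left out. Low FPKM did not lie clearly at multiples of 1 step: the best step gave 42.0 to 74.0 M fragments per library (M, mega), and 18.6 to 24.1 M when searched between 10 and 30 M. Depth is therefore unknown. Members and lists were chosen with earlier results of these data known, so the shares called are descriptions and not independent evidence. Named genes were all members, all tested genes of the other matricellular list, and up to 4 called genes with the smallest adjusted p from each related list, 1 of which is not reported here.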

Additional observations from a re-analysis of the deposited data

How the results depend on the processing

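Thbs2, Thbs3, Tnc, Smoc2, Ccn1 and Ccn2 kept direction and call in all 17 refits. Over those refits the log2 change ranged from 2.49 to 2.71 for Thbs2, 1.73 to 2.32 for Smoc2, 0.51 to 0.75 for Ccn2, -0.88 to -0.57 for Thbs3, -0.74 to -0.55 for Tnc and -0.63 to -0.36 for Ccn1. Members called higher numbered 3 or 4 and those called lower 3 to 5. The sign turned for Thbs1 (-0.043 without control replicate 1; -0.043 to 0.16 with 1 library left out and up to 0.184 over all refits), Ccn3 (-0.0204 without control replicate 1; -0.0204 to 0.17 with 1 library left out and up to 0.187 over all refits), Afdn (-0.17 for its most abundant transcript) and Postn (0.017 after median-of-ratios scaling, 0.051 with equal totals without Msx1, 0.071 for the most abundant transcript, and -0.23 to 0.087 with 1 library left out), and the cause was not tested. With a mean of at least 5 FPKM, which tests fewer genes, 3 other matricellular genes were called higher. Hippo and TEAD genes called higher numbered 4 for the most abundant transcript. Those called lower numbered 2 after median-of-ratios scaling, 1 with equal totals and 2 to 4 with 1 library left out. SRF and MRTF genes called lower numbered 2 under both scalings and 3 to 6 with 1 library left out. TGF-beta genes called lower numbered 1 with equal totals and for the most abundant transcript and 1 or 2 with 1 library left out. Same-numbered libraries had correlated deviations of 0.055, 0.226 and 0.037, not all above 0.1, and not every library correlated best with its own number. With the replicate number as a block, 2692 genes were higher and 4055 lower, and Smoc1 lost its call (adjusted p = 0.0742). Smoc1 was not tested at a mean of 5 FPKM. Depth is unknown, so the precision of low genes such as Smoc1 cannot be stated.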
